A study of Homo sapiens with 12 samples.

Results

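Cells of the human leukaemia line OCI-AML3, an established line from acute myeloid leukaemia, were treated for 24 h with an ERK inhibitor alone (ERKi in the labels, which call the agent compound 27) or with the solvent DMSO, and their transcriptomes were compared across all genes. These groups hold 6 of the 12 libraries of the series, 3 with ERKi and 3 with DMSO, and were chosen by their labels. The other 6 libraries come from the same line after 24 h of venetoclax, which blocks the survival protein BCL2 and is called ABT199 in the labels, with the ERK inhibitor (Comb) or without it, and serve here only to show where the ERKi effect differed on a second background. Polyadenylated RNA was sequenced as paired ends and deposited as raw read counts for 54628 gene symbols, of which 15173 had enough counts to be tested. The dose is not given in the labels, and nothing there says whether replicates were separate cultures, so the p-values reflect how these samples vary, a spread that may be technical only. The series concerns ERK inhibition against resistance to venetoclax, and the comparison without venetoclax asks what the inhibitor does by itself.

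The ERK kinases are the last kinases of the RAS-RAF-MEK-ERK cascade, which carries growth factor and oncogene signals to the nucleus. Active ERK phosphorylates ETS-family factors and the partners of serum response factor, which then switch on early genes, among them the phosphatases and Sprouty proteins that restrain the cascade itself. Further on, the pathway is known for driving cyclin D, MYC, ribosome and nucleotide supply, and in myeloid leukaemia for opposing or favouring maturation depending on the cell.

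Library totals ran from 19997096 to 20577870 counts with ERKi and from 21097830 to 21275065 with DMSO, and 21868 to 22385 symbols had a count with ERKi, against 20538 to 21152 with DMSO. DMSO replicate 1 stood apart from DMSO replicates 2 and 3 (chi-square per degree of freedom 16.3 and 15.37, against 2.256 to 3.909 for the other replicate pairs), and no pair of libraries agreed within sampling noise. The label of a myeloid leukaemia line was met by its markers: all 11 were tested, with summed levels of 3020 to 3068 CPM (counts per 1000000 of the scaled library) with ERKi and 1560 to 1612 CPM with DMSO. None of the 8 erythroid and 8 T and NK cell markers had enough counts to be tested. Fibroblast and stromal markers, with 5 of 7 tested and 0 called by edgeR, summed to 16.9, 12.6 and 32.1 CPM with ERKi and 6.16, 40.6 and 23.3 CPM with DMSO, ranges that overlap. Among these 5 markers DESeq2 likewise called 0 and the unadjusted p was under 0.05 for 0, although 2 collagen genes (COL1A1 and COL1A2) were called lower without DMSO replicate 1 (-1.05 and -0.70) and 1 marker was called higher without DMSO replicate 2. Of 6 megakaryocyte, 5 B cell and 5 epithelial markers, 3, 3 and 1 were tested and 1, 1 and 0 were called, the called ones higher. HBB, CD3D, PF4, MS4A1 and EPCAM had no count in any of the 6 libraries.

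ERKi changed the level of most genes, and the changes ran in both directions. Of the 15173 genes, 69.7% were called at an adjusted p under 0.05, with 5232 higher (34.5%) and 5346 lower (35.2%) by edgeR's quasi-likelihood test. At least 2-fold, 2085 genes were higher (13.7%) and 1601 lower (10.6%), and without DMSO replicate 1 these counts were 2144 and 1570. Over all levels together large effects leaned upward: 200 genes rose and 84 fell by 3 or more on the log2 scale. At 2-fold the lean lay in weakly expressed genes, with 620 higher and 246 lower under 1 CPM, and 885 and 444 from 1 to 10 CPM. It was reversed from 10 to 100 CPM, with 489 higher and 666 lower, and at 100 CPM or more, with 91 and 245. The median log2 fold change of all genes was 0.01 and the median of its size 0.54, and the 2 groups of libraries did not overlap for 71.12% of genes. Highly expressed genes were called lower more often than weakly expressed ones, but they were also called more often in all. Among the 2272 genes at 100 CPM or more, 83.98% were called, with 33.58% higher and 50.4% lower. Among the 2252 genes under 1 CPM, 41.87% were called, with 29.71% higher and 12.17% lower. The shares at least 2-fold lower were close, at 10.78% and 10.92%, while those at least 2-fold higher were 4.005% and 27.53%. All values are relative to the scaling, which takes the middle of the genes as unchanged.

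**Figure D1:**
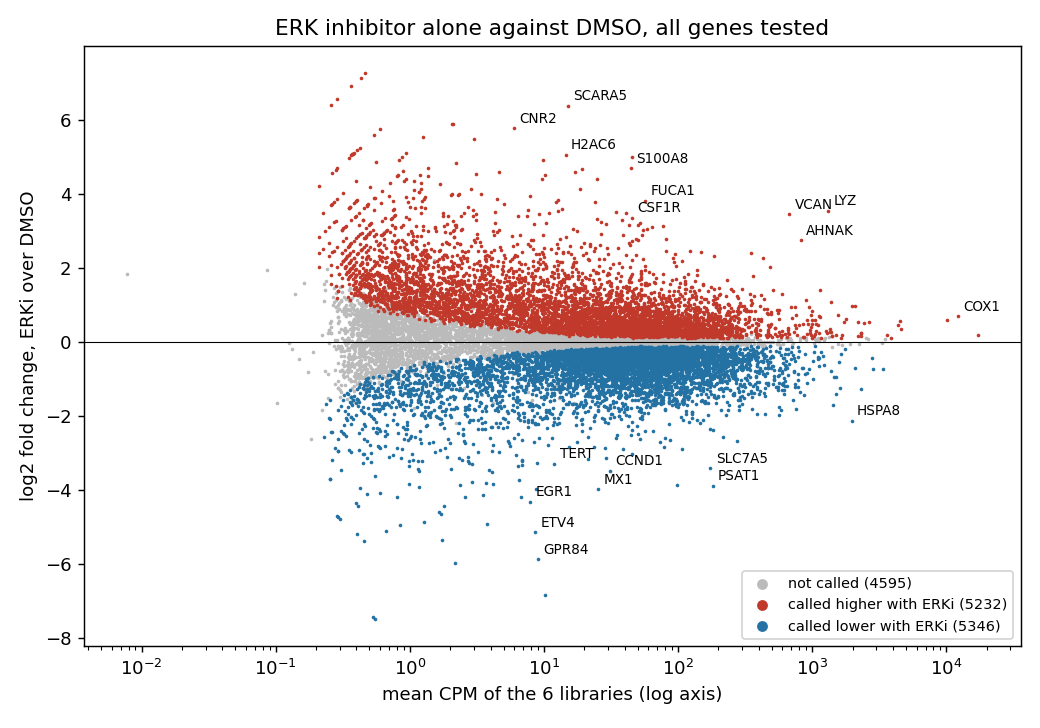
Log2 fold change of ERKi over DMSO (vertical axis) against mean CPM over the 6 libraries (horizontal log axis) for the 15173 genes tested. Red points were called higher with ERKi (5232), blue points lower (5346) and grey points not called (4595), and the named genes reach from SCARA5 at 6.38 down to GPR84 at -5.87.

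Among the genes with the largest rises were receptors, enzymes, an S100 protein and histones. The largest rises and falls were sought among called protein-coding genes with at least 5 CPM on average and no overlap between the groups of libraries. Non-overlap was thus fixed in advance for them, and it held for 71.12% of all genes tested. SCARA5, a scavenger receptor that binds ferritin, had 29.6, 31.4 and 28 CPM with ERKi and 0.242, 0.471 and 0.332 CPM with DMSO. The log2 difference was 6.38 (SE 0.207, adjusted p = 9.63e-14), from a level near the detection limit with DMSO. CNR2, the cannabinoid receptor of immune cells, had 10.6, 11.2 and 13.2 CPM with ERKi and 0.483, 0.141 and 0 CPM with DMSO, and its log2 fold change was 5.78. PDK4, the kinase that shuts pyruvate out of the tricarboxylic acid cycle, had 34.4, 35.9 and 35.3 CPM with ERKi and 2.13, 1.6 and 2.28 CPM with DMSO. Its log2 fold change was 4.13. FUCA1, a lysosomal fucosidase, had 106, 107 and 105 CPM with ERKi and 7.68, 7.3 and 7.59 CPM with DMSO, a log2 change of 3.82 (SE 0.063, adjusted p = 1.01e-16). LTK, a receptor tyrosine kinase, rose by 4.41, GUCY2D, a guanylate cyclase, by 4.59, REPS2, an adaptor of endocytosis, by 4.41, and PILRA, an inhibitory receptor of myeloid cells, by 3.79.

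Among the largest falls were ERK targets, amino acid genes and genes of cell surface and secretion. GPR84, a receptor for medium-chain fatty acids, had 0.332, 0.139 and 0.419 CPM with ERKi and 19.6, 17.1 and 16.2 CPM with DMSO, a log2 change of -5.87 (SE 0.212, adjusted p = 3.3e-13). C3orf52 had 0.19, 0.185 and 0.14 CPM with ERKi and 18.4, 21.6 and 20.9 CPM with DMSO and fell by 6.84 on the log2 scale. TERT, the catalytic subunit of telomerase, had 2.37, 1.66 and 2.61 CPM with ERKi and 23.7, 18.9 and 22.2 CPM with DMSO. Its log2 fold change was -3.29 (SE 0.148, adjusted p = 4.61e-12). SLCO4A1, an organic anion transporter, was at -3.73, SYT2, a synaptotagmin, at -3.36 and KCTD15 at -3.28. PSMB3, a proteasome subunit, met the same rule at -3.96, but it had 1.37, 1.02 and 0.745 CPM with ERKi and 4.11, 2.12 and 42.8 CPM with DMSO, and without DMSO replicate 3 its log2 fold change was -1.58 and missed the threshold (adjusted p = 0.169), nor did limma-voom call it (0.16).

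List counts here and below are to be set beside the shares of all genes tested, 34.5% higher and 35.2% lower. The brakes of the ERK pathway fell more often than they rose. Of 8 dual-specificity MAP kinase phosphatases tested, 5 fell and 2 rose (median -0.30). DUSP6, the cytoplasmic ERK phosphatase, had 1.9, 2.68 and 2.14 CPM with ERKi and 15.4, 14.7 and 14.1 CPM with DMSO, and the groups did not overlap (-2.71). DUSP5, its nuclear counterpart, fell by 0.94 and DUSP2 fell by 2.45 on the log2 scale. DUSP1, which acts on p38 and JNK as well as ERK, went the other way, with 6.02, 5.26 and 4.8 CPM with ERKi and 1.59, 1.18 and 1.42 CPM with DMSO, a log2 change of 1.94 (SE 0.207, adjusted p = 2.99e-07). Of 10 Sprouty, Spred and RAS GTPase-activating proteins, 8 fell and 1 rose (median -0.45): SPRY2 was at -1.05, SPRED2 at -0.56 and SPRED1 at -0.34, while RASA3, a GTPase-activating protein, rose by 0.65.

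The cascade itself was split, and its balance depended on the scaling. Of 19 members, 5 rose and 9 fell with a median of -0.10, against 8 and 4 with upper-quartile factors, 7 and 4 with library totals and 7 and 7 without DMSO replicate 1. Without ERKi replicate 1 or 3, 5 and 4 members were lower. The phosphatase PTPN11, which relays receptor signals to RAS, fell by 0.71. KSR1, the scaffold that joins RAF to MEK, rose by 1.05 and the exchange factor SOS2 by 0.94.

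Within the transcription factors downstream of ERK, some of the best-known targets fell to under 1 CPM while others rose. Of 17 ETS and EGR factors, 8 rose and 7 fell (median 0.04). ETV4, a PEA3-group ETS factor, had 0.379, 0.508 and 0.512 CPM with ERKi and 16.6, 15.1 and 18.4 CPM with DMSO, and EGR1, the zinc-finger factor made within minutes of ERK activation, had 0.9, 0.462 and 0.885 CPM with ERKi and 13.2, 16.4 and 15.5 CPM with DMSO. Their log2 fold changes were -5.14 and -4.32. ETV5 fell by 1.56 and EGR4 is a further member of the list that fell (-2.46, SE 0.628). EGR4 was near the floor in both groups, with means of 0.09 CPM with ERKi and 0.54 CPM with DMSO. ETS2, itself an ERK substrate, had 851, 860.1 and 842 CPM with ERKi and 362, 336 and 342 CPM with DMSO, a rise of 1.29 (SE 0.037, adjusted p = 2.74e-14). ELF4 rose by 0.83. The EGR1 gene lies on chromosome 5, 138465479 to 138469303 (GRCh38), and its promoter carries the elements through which serum response factor works, shown here because EGR1 is the 1 gene of the 13 listed ETS and EGR factors in the promoter table in which they were found. In the RefSeq window of 250 bases before to 50 after the start (GRCh38.p14), a script found 2 CArG boxes in EGR1, in capitals below (chr5:138465354-138465425, plus strand). A CArG box stood in 2.07% of the promoters of genes at least 2-fold higher, 1.73% of those at least 2-fold lower and 0.754% of those not called.
EGR1: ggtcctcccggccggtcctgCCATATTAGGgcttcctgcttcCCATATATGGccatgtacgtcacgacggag

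AP-1 factors also split. Of 14 AP-1 and MAF factors, 8 rose and 4 fell (median 0.42). FOS had 158, 154 and 165 CPM with ERKi and 30.1, 30.1 and 32.6 CPM with DMSO, with every ERKi library above every DMSO library (2.36), and FOSB rose by 1.78. FOSL1, the FOS relative known to be stabilised by ERK, had 2.89, 2.4 and 2.89 CPM with ERKi and 9.37, 8.76 and 8.68 CPM with DMSO, a fall to a lower level in every ERKi library (-1.71, SE 0.134, adjusted p = 5.77e-09). BATF3, an AP-1 partner needed for some dendritic cells, had 0.663, 0.739 and 0.559 CPM with ERKi and 8.21, 6.31 and 8.3 CPM with DMSO and fell by 3.53 on the log2 scale.

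Genes that let cells enter the cycle fell and several that hold them back rose. MYC had 159.9, 167 and 158 CPM with ERKi and 335, 297 and 286 CPM with DMSO, a log2 fold change of -0.92, while MXD1 and MXD4, which compete with MYC for MAX, rose by 1.18 and 1.05. Of 11 members of the MYC, MAX and MXD network 6 rose and 4 fell, with MXD3 (-0.39) among those that fell. Of 14 G1 cyclins, kinases and their inhibitors 9 fell and 5 rose (median -0.74). CCND1, cyclin D1, had 4.93, 4.53 and 5.92 CPM with ERKi and 54.3, 56.9 and 60.1 CPM with DMSO, and CCNE1, cyclin E1, had 7.82, 7.16 and 7.27 CPM with ERKi and 39.2, 35.1 and 36.2 CPM with DMSO. Their log2 fold changes were -3.48 and -2.31. CDKN2B, the CDK4 and CDK6 inhibitor p15, had 14.3, 15.7 and 12.2 CPM with ERKi and 0.773, 1.55 and 1.19 CPM with DMSO, a log2 change of 3.58 (SE 0.2, adjusted p = 7.49e-11). CDKN1B (p27) rose by 0.40, CDKN2A by 0.89, CDKN1A by 0.83 and CDKN2D by 0.65. CDKN2C, a further CDK inhibitor of the list, went the other way (-0.96). Of 17 E2F factors and pocket protein partners, 14 fell and 1 rose (median -0.96): the activators E2F1 and E2F2 were at -1.87 and -0.96, E2F8 at -1.85 and the MuvB partner MYBL2 at -2.10, and the pocket protein RBL2, linked to quiescence, was at 0.21.

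The machinery of DNA replication was lower almost as a block. Of 42 licensing and fork genes, 40 fell and 0 rose, with a median of -1.5, and 31 fell at least 2-fold. DESeq2 and limma-voom also called 0 higher, 0 had an unadjusted p under 0.05 in that direction, and with upper-quartile factors or library totals 1 was. CDC45, a subunit of the replicative helicase, had 19, 20.9 and 19.1 CPM with ERKi and 149.5, 115 and 119 CPM with DMSO, the highest of them in DMSO replicate 1. All ERKi libraries lay below all DMSO libraries (-2.70, SE 0.086, adjusted p = 7.63e-14). MCM10 had 22.1, 25.5 and 23.9 CPM with ERKi and 137, 155 and 156 CPM with DMSO and MCM2 56.8, 59.3 and 57.1 CPM with ERKi and 266, 245 and 242 CPM with DMSO, with log2 fold changes of -2.65 and -2.12. PCNA, the sliding clamp, was also lower in all 3 ERKi libraries.

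Promoters of these genes are shown because E2F sites are frequent among them: 19 of 35 replication promoters in the RefSeq table held an E2F site (TTTCCCGC, TTTCCCGG, TTTGGCGC or TTTGGCGG on either strand), against 7.26% of 10022 tested protein-coding genes. Over the transcriptome, 12.2% of promoters of genes at least 2-fold lower held such a site, 4.54% of those at least 2-fold higher and 6.86% of those not called. Members with the largest falls and a site before the start were CDC45 (chr22:19479875-19479919), CDC6 (chr17:40287831-40287878), GINS2 (chr16:85688958-85689005, minus strand) and MCM6 (chr2:135876511-135876610, minus strand), at -2.70, -2.59, -2.38 and -1.95. Sites are in capitals, each line reads 5′ to 3′ on the gene's strand, and a match is a description of letters, not of binding.
CDC45: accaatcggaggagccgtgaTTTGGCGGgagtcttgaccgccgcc
CDC6: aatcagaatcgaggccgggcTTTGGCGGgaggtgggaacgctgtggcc
GINS2: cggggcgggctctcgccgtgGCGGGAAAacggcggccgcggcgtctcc
MCM6: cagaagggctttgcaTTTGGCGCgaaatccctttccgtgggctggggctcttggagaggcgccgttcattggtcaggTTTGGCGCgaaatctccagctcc

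All 26 mitotic genes tested fell at least 2-fold, between -1.15 and -1.88 on the log2 scale, under the fit reported. PLK1, the kinase of mitotic entry, had 67.1, 64.4 and 62.8 CPM with ERKi and 239, 189.5 and 192 CPM with DMSO, and CDC20, the activator of the anaphase-promoting complex, had 47.5, 49.1 and 49.5 CPM with ERKi and 203, 164 and 169 CPM with DMSO. Both were lower in every ERKi library, and in both DMSO replicate 1 was the highest. TOP2A, which untangles sister chromatids, had 357, 350.3 and 355 CPM with ERKi and 774, 925 and 937 CPM with DMSO, with DMSO replicate 1 the lowest of its group (-1.31). Mitotic promoters are known for a CHR element (TTTGAA or TTTAAA here) spaced after CCAAT boxes (CCAAT), each also counted as its reverse complement, and 19 of 21 held the first and 17 the second. Over all tested protein-coding genes the shares were 16% and 36.7%. The short CHR letters also occur often in promoters of genes at least 2-fold higher (21.4%) and lower (22.8%). Both elements are in capitals in CDC20 (chr1:43358788-43358945), PLK1 (chr16:23678726-23678880) and CCNB1 (chr5:69167048-69167140). In CCNB1 the only CHR match follows the CCAAT boxes. In CDC20 and PLK1 a CHR match follows a CCAAT box, but CHR letters also stand before it. In CDC20 a further CCAAT box comes after the last CHR match.
CDC20: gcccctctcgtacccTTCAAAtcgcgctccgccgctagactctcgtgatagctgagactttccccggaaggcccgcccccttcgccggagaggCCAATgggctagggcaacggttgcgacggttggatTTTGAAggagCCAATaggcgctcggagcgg
PLK1: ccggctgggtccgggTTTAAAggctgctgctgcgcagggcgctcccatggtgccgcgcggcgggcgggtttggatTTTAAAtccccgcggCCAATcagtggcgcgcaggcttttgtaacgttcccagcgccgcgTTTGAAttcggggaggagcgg
CCNB1: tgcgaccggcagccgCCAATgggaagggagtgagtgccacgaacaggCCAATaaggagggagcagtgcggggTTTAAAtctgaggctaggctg

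Repair and nucleotide supply fell alongside. Of 22 homologous recombination and checkpoint genes 19 fell and 2 rose (median -1.03). BRCA1 had 55.2, 57.3 and 52.1 CPM with ERKi and 159.8, 191 and 186 CPM with DMSO, at -1.71 on the log2 scale, and RAD54L fell by 1.75. ATM, the kinase that signals double-strand breaks, had 265, 229 and 264 CPM with ERKi and 121, 174 and 175 CPM with DMSO and rose (0.69), with DMSO replicate 1 the lowest. The number of risers was 1 without DMSO replicate 1, without any single ERKi replicate, with only the libraries compared or with no filter on low counts. Among 26 nucleotide synthesis enzymes 25 fell and 1 rose (median -1.17). RRM2, the ribonucleotide reductase subunit of S phase, had 58.1, 54.7 and 57 CPM with ERKi and 265, 301 and 296 CPM with DMSO, while RRM2B, its p53-controlled relative, had 152, 145 and 149 CPM with ERKi and 87.9, 115 and 107 CPM with DMSO. The first fell (-2.34) and the second was the riser (0.52). PAICS, of purine synthesis, fell by 1.83 and CAD, which starts pyrimidine synthesis, fell by 1.31.

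**Figure D2:**
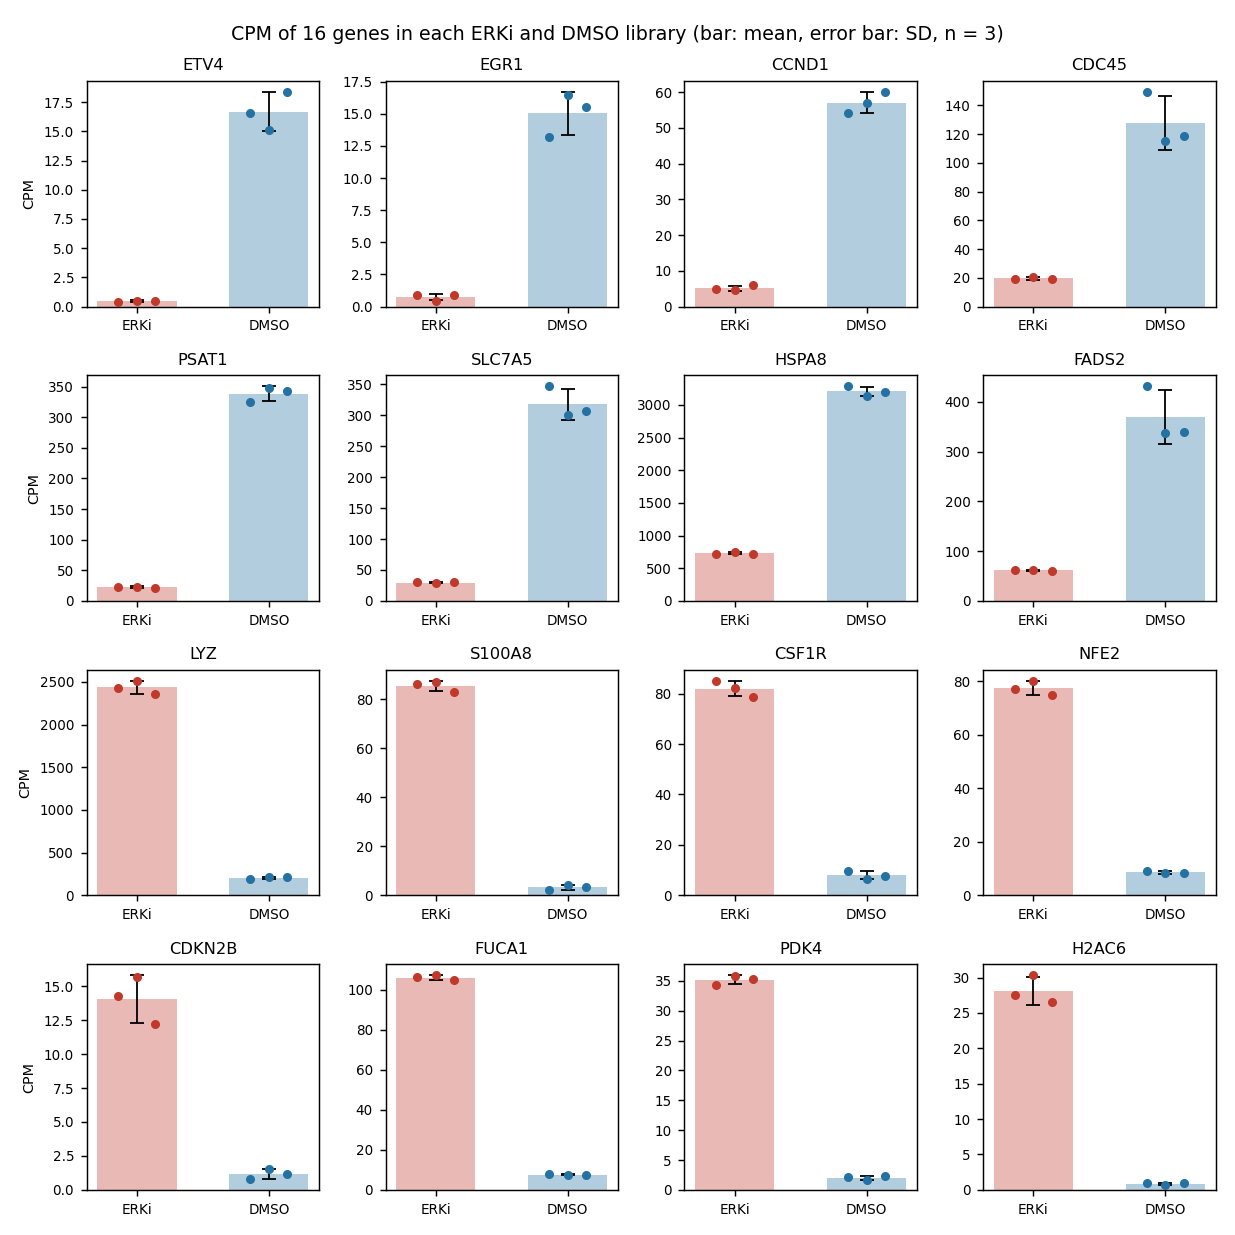
CPM (vertical axis, from 0, a scale of its own in each panel) of 16 genes in the 3 ERKi libraries (red points, left) and the 3 DMSO libraries (blue points, right), with bars at the mean and error bars of 1 SD (n = 3). The groups do not overlap in any of these panels: ETV4 through FADS2 are lower with ERKi, and LYZ through H2AC6 higher. Non-overlap held for 71.12% of all genes tested and was required of the genes taken as largest rises and falls.

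Serine and one-carbon enzymes mostly fell. Of 16 serine and one-carbon enzymes 13 fell and 2 rose (median -1.34), the second count being 1 without ERKi replicate 2. PSAT1, of serine synthesis, had 23.3, 23.6 and 21.7 CPM with ERKi and 325, 348 and 343 CPM with DMSO, a log2 change of -3.89 (SE 0.056, adjusted p = 1.62e-17), and its neighbour in the pathway PHGDH had 14.3, 11.6 and 12.3 CPM with ERKi and 209, 171 and 172 CPM with DMSO. SHMT2, the mitochondrial enzyme that splits serine, fell by 1.70, whereas MTHFD2L, a paralogue of the mitochondrial folate enzyme MTHFD2, rose by 0.67. Amino acid transporters went both ways, with 8 of 22 higher and 12 lower. SLC7A5, the large neutral amino acid carrier, had 30.8, 28.3 and 30.2 CPM with ERKi and 347, 300.2 and 306 CPM with DMSO, its partner SLC3A2 fell by 1.25, and the glycine carrier SLC6A9 had 0.711, 0.277 and 0.466 CPM with ERKi and 6.96, 6.5 and 7.21 CPM with DMSO. SLC7A11, the cystine carrier, had 40.4, 40.2 and 40 CPM with ERKi and 17.4, 22.6 and 22.3 CPM with DMSO, SLC1A3, a glutamate carrier, had 8.29, 8.22 and 7.83 CPM with ERKi and 3.38, 3.25 and 2.28 CPM with DMSO, and both rose (0.95 and 1.45).

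Genes of tRNA charging, mitochondrial ribosomes, splicing, translation initiation and the proteasome mostly fell. Cytosolic aminoacyl-tRNA synthetases fell in 19 of 20 cases (median -1.11), mitochondrial ribosomal proteins in 58 of 63 (median -0.70), SR and hnRNP splicing factors in 22 of 26 (median -0.75) and translation initiation factors in 24 of 35 (median -0.42). GARS1, which charges glycine, had 112, 117 and 112 CPM with ERKi and 359, 356 and 345 CPM with DMSO, a log2 fold change of -1.64. EIF4E, the cap-binding protein, had 46.3, 46.1 and 42.8 CPM with ERKi and 94.5, 108 and 105 CPM with DMSO and its inhibitor EIF4EBP1 33.7, 38.1 and 33.3 CPM with ERKi and 154, 112 and 111 CPM with DMSO. Both were lower in all 3 ERKi libraries (-1.19 and -1.84), and EIF4A2 rose (0.39). All 34 proteasome genes tested were lower (median -0.93; 33 with limma-voom or without DMSO replicate 3), with PSMC3, an ATPase of the base, at -1.55 and PSME1, of the 11S cap, at -0.30. Among splicing factors, HNRNPR fell by 1.38, and SRSF11 (0.58) and SRSF5 (0.33) rose. Counts of riser tRNA synthetases were 0 or 1 across the alternatives, and VARS1 (-2.65) swung from 2.97 to 26.3 CPM within DMSO and missed the threshold without DMSO replicate 3 (-1.33, adjusted p = 0.0696).

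In absolute CPM the largest losses fell on chaperones, cytoskeleton and glycolysis. HSPA8, the constitutive HSP70, had 719, 748 and 725 CPM with ERKi and 3284, 3135 and 3194 CPM with DMSO, the largest loss in mean CPM of the genes tested (-2.13, SE 0.036, adjusted p = 1.2e-16). HSP90AB1 and HSP90AA1, the cytosolic HSP90 pair, had log2 fold changes of -1.27 and -1.41. ACTB had 2489, 2606 and 2494 CPM with ERKi and 4674, 3942 and 3883 CPM with DMSO, TUBA1B 662, 713 and 659 CPM with ERKi and 2537, 2027 and 2021 CPM with DMSO and GAPDH 2112, 2191 and 2094 CPM with ERKi and 4126, 3247 and 3304 CPM with DMSO. In these 3 genes DMSO replicate 1 was the highest library, and all ERKi libraries were lower than all DMSO libraries. ENO1, MSN and HNRNPA2B1 fell, with log2 fold changes of -0.94, -0.70 and -0.94.

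The largest gains went to mitochondrially encoded RNAs and myeloid proteins. COX1, the mitochondrially encoded oxidase subunit, had 15788, 13863 and 15718 CPM with ERKi and 10097, 8878 and 8966 CPM with DMSO, and RNR2, the mitochondrial 16S ribosomal RNA, had 12648, 11169 and 12545 CPM with ERKi and 7980, 7969.8 and 7968 CPM with DMSO. EEF1A1, the elongation factor that delivers tRNAs, had 18152, 18672 and 17931 CPM with ERKi and 16600, 16100.3 and 15765 CPM with DMSO, a small rise (0.18, SE 0.032, adjusted p = 0.000103). SRGN, the granule proteoglycan, had 2570.3, 2740 and 2568 CPM with ERKi and 1329.6, 1340.4 and 1329 CPM with DMSO, AHNAK, a scaffold under the membrane, 1474, 1319 and 1502 CPM with ERKi and 173, 229 and 238 CPM with DMSO and VCAN, a matrix proteoglycan of monocytes, 1262, 1186 and 1259 CPM with ERKi and 96.7, 119 and 126 CPM with DMSO. The groups of libraries did not overlap for any of these genes. As shares of all counts, the 13 mitochondrially encoded mRNAs took 4.77% ± 0.32 with ERKi and 2.998% ± 0.23 with DMSO (SD, n = 3 each), and 88 cytosolic ribosomal protein genes took 8.17% ± 0.20 and 6.82% ± 0.37. Replication genes took 0.253% ± 0.00268 with ERKi and 0.694% ± 0.0169 with DMSO, and granule protein genes 0.992% ± 0.0269 and 0.392% ± 0.0212. Each difference had p = 0.1 in a two-sided exact permutation test, the smallest that 3 against 3 libraries allow.

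Transcription factors of the myeloid lineage rose more often than they fell. Of 25 lineage transcription factors 19 rose and 4 fell (median 0.58). NFE2 had 77.2, 80.3 and 74.9 CPM with ERKi and 9.18, 8.43 and 8.3 CPM with DMSO, KLF4, which promotes monocyte fate, 88.2, 87.9 and 85.9 CPM with ERKi and 13.6, 12.9 and 12.2 CPM with DMSO, and CEBPB, of granulocytes and macrophages, 20.5, 22.6 and 19 CPM with ERKi and 7.3, 7.82 and 7.59 CPM with DMSO. The groups did not overlap for any of these, and the log2 fold changes were 3.16, 2.76 and 1.45. SPI1 (PU.1) and CEBPA, which found the lineage, rose by 0.73 and 0.85. IRF8 had 1135, 1178 and 1125 CPM with ERKi and 1112, 1124 and 1121 CPM with DMSO, a difference that missed the threshold (0.03, adjusted p = 0.406) and was called with upper-quartile factors (0.17) or library totals (0.12). GATA2, a stem and progenitor factor, had 0.379, 0.416 and 0.559 CPM with ERKi and 2.42, 2.31 and 1.9 CPM with DMSO and fell by 2.27. Other factors with roles in progenitors rose: RUNX1 by 0.59, TAL1 by 0.58, LMO2 by 0.50 and LYL1 by 0.46. MYB was not called (-0.07), except without DMSO replicate 1 (-0.12), and GFI1 fell by 0.36. The risers of this list thus do not all stand for maturation. In bulk RNA, fewer cells of a kind and less RNA per cell cannot be told apart.

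HOX genes and their cofactors, a programme active in this leukaemia, had a median near that of all genes. Of 19 members tested 7 rose and 3 fell (median 0.10). MEIS1 had 48.7, 44.9 and 49.1 CPM with ERKi and 38.8, 40 and 38.6 CPM with DMSO, a rise of 0.28, and its partner PBX3 rose by 0.70. NPM1, the nucleolar protein whose mutation defines a leukaemia subtype, had 1256, 1324 and 1265 CPM with ERKi and 1955, 1848 and 1844 CPM with DMSO, at -0.56 on the log2 scale. HOXB9 had 0.332, 0 and 0.28 CPM with ERKi and 1.89, 1.93 and 1.9 CPM with DMSO and fell by 3.19.

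Granule proteins and S100 proteins were mostly higher. Of 19 granule genes 14 rose and 3 fell (median 0.82), and of 8 S100 genes 7 rose and 0 fell (median 1.58). Over these 8 S100 genes DESeq2 also called 0 lower and 0 had an unadjusted p under 0.05 in that direction, and without DMSO replicate 1 all 8 rose. CTSG, the cathepsin G of azurophil granules, had 2707, 2835 and 2767 CPM with ERKi and 1628, 1304 and 1297 CPM with DMSO, with DMSO replicate 1 the highest of its group (0.97, SE 0.064, adjusted p = 6.08e-10). AZU1, azurocidin, had 23.1, 31.7 and 14.4 CPM with ERKi and 8.99, 6.5 and 5.5 CPM with DMSO and a log2 fold change of 1.72. MPO, the myeloperoxidase of the same granules, had 0.853, 0.877 and 1.26 CPM with ERKi and 2.03, 1.41 and 1.71 CPM with DMSO, at a low level, and fell (-0.78, SE 0.238, adjusted p = 0.00799). S100A8 and S100A9, the subunits of calprotectin, had 86.3, 87 and 83 CPM with ERKi and 2.32, 4.14 and 3.37 CPM with DMSO, and 33.2, 38.4 and 35.2 CPM with ERKi and 7.44, 8.01 and 7.54 CPM with DMSO. The rises were 4.70 and 2.21 on the log2 scale.

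Surface receptors separated within the monocyte set. Of 32 tested 19 rose and 6 fell (median 0.72), with 12 and 5 at least 2-fold. CSF1R, the receptor for macrophage colony-stimulating factor, had 85, 82.2 and 78.8 CPM with ERKi and 9.76, 6.69 and 7.63 CPM with DMSO, CD86, a costimulator, 88.2, 102 and 89.4 CPM with ERKi and 9.47, 10.6 and 10.3 CPM with DMSO and CD36, a scavenger receptor, 356, 358 and 345 CPM with ERKi and 109, 112 and 111 CPM with DMSO. All 3 were higher in every ERKi library. FCGR1A, the high-affinity IgG receptor, had 5.59, 5.17 and 5.45 CPM with ERKi and 23.2, 18.6 and 21.4 CPM with DMSO, and SIGLEC1, an interferon-responsive lectin, had 1.33, 1.71 and 0.978 CPM with ERKi and 4.59, 3.96 and 5.83 CPM with DMSO. These fell, to -1.96 and -1.84 on the log2 scale. CD14, the lipopolysaccharide co-receptor of classical monocytes, stayed under 1.2 CPM in all 6 libraries, at 0.284, 0.277 and 0.373 CPM with ERKi and 1.11, 0.659 and 0.379 CPM with DMSO. It was called lower (-1.18), but not without DMSO replicate 1 (-0.73, adjusted p = 0.208), without ERKi replicate 1 or 2 (0.0725 and 0.0756), by DESeq2 (0.0567) or by limma-voom (0.0537), and CD163 overlapped between the groups (0.20, adjusted p = 0.389).

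Receptors for cytokines, chemokines and microbial products rose more often than they fell. The counts were 14 higher and 4 lower of 22 cytokine and growth factor receptors, 12 and 3 of 17 myeloid G protein-coupled receptors, 10 and 2 of 15 leukocyte integrins and adhesion molecules, and 17 and 1 of 22 Toll-like receptor and inflammasome genes. FLT3, the receptor tyrosine kinase often mutated in this leukaemia, had 385, 396 and 377 CPM with ERKi and 164, 169.5 and 174 CPM with DMSO, and CSF3R, the receptor for granulocyte colony-stimulating factor, had 197, 187 and 189 CPM with ERKi and 88, 67.2 and 65.8 CPM with DMSO. CXCR4, the marrow-homing receptor, had 498, 492 and 487 CPM with ERKi and 217, 189.9 and 192 CPM with DMSO, and CX3CR1 80.1, 81.4 and 75.4 CPM with ERKi and 27.2, 26.6 and 26.3 CPM with DMSO. None of these 4 genes overlapped between the groups, with rises of 1.19, 1.37, 1.30 and 1.56. The integrin subunit ITGB7 had 84.9, 93.7 and 92.7 CPM with ERKi and 11.1, 8.71 and 10.6 CPM with DMSO, and PECAM1, of endothelial and myeloid contacts, 73.3, 76.8 and 75.3 CPM with ERKi and 11.4, 12.2 and 11.6 CPM with DMSO. ITGB2, the shared beta subunit of leukocyte integrins, fell instead (-0.70, SE 0.055, adjusted p = 5.54e-09). TLR4, the lipopolysaccharide receptor, had 149.5, 151 and 151 CPM with ERKi and 48, 58.1 and 56.1 CPM with DMSO, TLR1 rose by 2.16 and NOD2, a cytosolic sensor, by 2.05, while IRAK1, a kinase below these receptors, fell by 0.38. The numbers of adhesion genes lower were 1 under the upper-quartile, library-total and CPM-filter settings, and 1 without ERKi replicate 1 or DMSO replicate 3, and 2 Toll-like receptor and inflammasome genes were lower without DMSO replicate 1.

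Inflammatory genes went both ways. Of 14 cytokine and NF-kB genes 3 rose and 6 fell (median -0.01), against 34.5% and 35.2% of all genes tested. CXCL8, the neutrophil attractant interleukin 8, had 50.2, 48.6 and 52.3 CPM with ERKi and 96.9, 109 and 111 CPM with DMSO, and IL1B had 24.2, 27.9 and 28.8 CPM with ERKi and 44.9, 43.1 and 41.3 CPM with DMSO. TNFAIP3, the A20 brake on NF-kB, had 6.96, 7.57 and 6.1 CPM with ERKi and 24.3, 27.6 and 26.8 CPM with DMSO, while NFKBIA, the inhibitor of NF-kB that the factor itself induces, had 48.2, 47.2 and 43.8 CPM with ERKi and 30.1, 25.6 and 25.9 CPM with DMSO. The groups did not overlap in any of the 4, and the log2 fold changes were -1.07, -0.67, -1.93 and 0.77. The cytokine IL18 was also among the risers and rose further than NFKBIA.

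Interferon signalling genes went both ways. STAT2, which carries type I interferon signals, had 151, 138 and 149.6 CPM with ERKi and 47.1, 44.4 and 44.9 CPM with DMSO, and every ERKi library was above every DMSO library (1.69, SE 0.053, adjusted p = 7.2e-14). IRF5 had 210, 218 and 216 CPM with ERKi and 69.8, 54.3 and 59.9 CPM with DMSO and rose, and IRF7, the amplifier of type I interferon, had 3.13, 1.94 and 2.75 CPM with ERKi and 8.6, 7.16 and 5.6 CPM with DMSO and fell by 1.45 on the log2 scale. Of 25 JAK, STAT, IRF and SOCS genes 14 rose and 5 fell (median 0.23), with STAT5A at 2.09. The interferon-induced IFI44L had 0.663, 0.554 and 0.885 CPM with ERKi and 12.1, 13.7 and 12.6 CPM with DMSO, and the antiviral MX1 3.51, 2.73 and 2.75 CPM with ERKi and 51, 46.4 and 44.9 CPM with DMSO, both among the 15 largest falls. The promoter of IFI44L (chr1:78620269-78620398) is shown because it holds the letters of the interferon-stimulated response element (GAAANNGAA, in capitals) in a repeated stretch. Such letters stood in 7.08% of promoters of genes at least 2-fold lower and 8.1% of those at least 2-fold higher, against 6.71% of all tested.
IFI44L: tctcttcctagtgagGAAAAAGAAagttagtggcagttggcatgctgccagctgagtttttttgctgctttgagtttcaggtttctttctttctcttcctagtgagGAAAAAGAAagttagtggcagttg

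Class I antigen presentation genes went both ways, and 3 of the 4 genes of the class II pathway that could be tested rose. Of 14 class I genes 6 rose and 2 fell (median 0.30; 4 were lower without DMSO replicate 2 or 3, or with no filter). NLRC5, the class I transactivator, had 31.7, 29.7 and 32.1 CPM with ERKi and 51.1, 48.4 and 50.7 CPM with DMSO and fell by 0.68. Class I genes of chromosome 6 have near-identical copies on alternative haplotypes, so their levels are uncertain. CIITA, the class II transactivator, had 4.69, 3.56 and 4.14 CPM with ERKi and 1.01, 1.37 and 1.52 CPM with DMSO and rose by 1.66, CTSS, the cathepsin that trims the invariant chain, had 365, 374 and 362 CPM with ERKi and 135, 145 and 147 CPM with DMSO, and CD74, the invariant chain itself, had 105, 111 and 101 CPM with ERKi and 110.3, 85.7 and 85 CPM with DMSO (0.17, adjusted p = 0.0658, and 0.30 and called without DMSO replicate 1). Of 12 class II genes 4 had enough counts to be tested, and 3 of these rose, each at least 2-fold (median 1.51). The largest of those rises, 5.07 on the log2 scale, belongs to HLA-DRA, the only HLA class II gene tested. It was under 1 CPM in all 6 libraries and nearly without counts with DMSO. The size of its rise thus depends on the prior count of the fit. The phagocyte oxidase list gave 2 higher and 3 lower of 8, against 34.5% and 35.2% of all genes tested. It gave 4 and 3 without DMSO replicate 1, 4 and 1 with upper-quartile factors or library totals, and 1 higher without any other single library. NCF1, the p47 subunit, fell (-0.79), and it has near-identical pseudogenes that could share its reads.

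Genes of the FOXO and insulin pathway and of lysosomes rose. Of 27 FOXO, insulin and PI3K genes 21 rose and 5 fell (median 0.40). TXNIP, which limits glucose uptake, had 703, 712 and 678 CPM with ERKi and 396, 411 and 413 CPM with DMSO, and PIK3IP1, an inhibitor of PI3K, 7.86, 7.94 and 7.17 CPM with ERKi and 2.22, 2.4 and 2.8 CPM with DMSO. Their groups did not overlap (0.78 and 1.63), and AKT1 fell by 0.80. Of 40 lysosomal genes 26 rose and 5 fell (median 0.55), and 8 of them rose at least 2-fold. CTSF, cathepsin F, had 56.7, 55.7 and 56.1 CPM with ERKi and 18.4, 14.6 and 13.8 CPM with DMSO, and CTSB, cathepsin B, 369, 371 and 356 CPM with ERKi and 209, 191 and 179.7 CPM with DMSO. In both, every ERKi library was above every DMSO library. TFEB, the master regulator of lysosomal genes, had 23.6, 24.7 and 22.8 CPM with ERKi and 13.4, 9.7 and 8.16 CPM with DMSO, a rise of 1.19 (SE 0.124, adjusted p = 2.32e-07). ATP6V1B2, of the proton pump, fell by 0.42. TFEB is known to bind the CLEAR letters (TCACGTGA, which contain the E-box CACGTG), present in 5 of 28 lysosomal promoters and 1.97% of all tested. The holders were not the genes that rose furthest: GAA (called higher, chr17:80101489-80101571), CTSA (0.44), LAMP1 (0.16), MCOLN1 (0.03) and ATP6V0D1 (-0.06), the last pair not called. GAA, the acid alpha-glucosidase, carries a pair of them.
GAA: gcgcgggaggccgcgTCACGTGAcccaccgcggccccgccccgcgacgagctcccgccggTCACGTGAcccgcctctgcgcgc

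Iron genes went both ways and antioxidant genes mostly fell. TFRC, the transferrin receptor for iron uptake, had 54.7, 52 and 51.6 CPM with ERKi and 202, 260.1 and 258 CPM with DMSO, and SLC40A1, the iron exporter ferroportin, had 16.8, 18.6 and 16.8 CPM with ERKi and 4.06, 5.56 and 5.64 CPM with DMSO. The importer was lower and the exporter higher in all 3 ERKi libraries (-2.19 and 1.77), and HMOX1, which frees iron from haem, had 3.27, 2.82 and 2.89 CPM with ERKi and 0.193, 0.424 and 0.806 CPM with DMSO (2.64). Of 15 iron genes in all 7 rose and 6 fell. Of 15 NRF2 antioxidant genes 9 fell and 1 rose (median -0.20; 5 fell and 2 rose with upper-quartile factors, and 2 rose without DMSO replicate 1). PRDX1, a peroxiredoxin, had 60.5, 57.8 and 58.1 CPM with ERKi and 159.5, 163 and 165 CPM with DMSO and fell by 1.47 on the log2 scale. ME1, the malic enzyme, was the riser, with 45.8, 47.4 and 42.8 CPM with ERKi and 17, 19.5 and 17.8 CPM with DMSO.

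More fatty acid synthesis and liver X receptor genes fell than rose, and genes of fatty acid oxidation and glucose use went both ways. Of 17 fatty acid synthesis and liver X receptor genes 9 fell and 5 rose (median -0.33). The desaturase FADS2 had 61.4, 63.2 and 60.3 CPM with ERKi and 432, 337 and 339.7 CPM with DMSO, SCD, stearoyl-CoA desaturase, 224, 233 and 229 CPM with ERKi and 825, 939.8 and 940.4 CPM with DMSO, and FASN, fatty acid synthase, 255, 253 and 262 CPM with ERKi and 989, 877 and 876 CPM with DMSO. All were lower in every ERKi library (-2.58, -1.98 and -1.83), and the cholesterol exporter ABCA1 and the LDL receptor degrader MYLIP rose by 1.01 and 1.44. Of 18 fatty acid oxidation and PPAR genes 9 rose and 6 fell. CPT1A, which admits fatty acids to mitochondria, had 20.6, 20.4 and 20.2 CPM with ERKi and 9.42, 8.76 and 8.11 CPM with DMSO, and PPARG, the lipid-sensing receptor, 22.4, 23.5 and 23.2 CPM with ERKi and 9.42, 8.29 and 8.25 CPM with DMSO. Both rose (1.22 and 1.41), while FABP5, a fatty acid carrier, fell by 1.64. Among 25 glucose transport and glycolytic isozyme genes 9 rose and 12 fell, against 34.5% and 35.2% of all genes tested. The transporters SLC2A1 and SLC2A3 fell (-1.02 and -1.03), HK2 had 254, 252 and 246 CPM with ERKi and 119, 138 and 138 CPM with DMSO against its sister isozyme HK1 with 55.3, 65.8 and 59.3 CPM with ERKi and 88.9, 81.6 and 78.5 CPM with DMSO, and the first rose (0.93) and the second fell (-0.46).

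Chromatin genes went both ways. Of 23 DNA methylation and Polycomb enzymes 7 rose and 11 fell, against 34.5% and 35.2% of all genes tested. UHRF1, which guides DNMT1 to new strands, had 39.1, 42.1 and 42.1 CPM with ERKi and 182, 172 and 177 CPM with DMSO, and EZH2, the Polycomb methyltransferase of dividing cells, 60.1, 59.2 and 62.8 CPM with ERKi and 146, 145 and 153 CPM with DMSO. Both were lower with ERKi (-2.11 and -1.29). EZH1, the paralogue known from resting cells, had 67.8, 65.2 and 69.7 CPM with ERKi and 32, 33.3 and 34.4 CPM with DMSO and rose by 1.02, as did CBX7 (1.21). Of 19 histone genes 12 rose and 4 fell (median 1.45). H2AC6 had 27.5, 30.3 and 26.6 CPM with ERKi and 0.966, 0.659 and 0.901 CPM with DMSO, H2BC5 14.4, 15.4 and 14.1 CPM with ERKi and 0.87, 1.04 and 0.948 CPM with DMSO, and the linker histone H1-2 13.3, 13.7 and 12.3 CPM with ERKi and 1.93, 2.17 and 2.13 CPM with DMSO. The variants H2AZ1 and H2AX fell (-1.68 and -1.27), and H2AZ1 had 147, 139.7 and 140.4 CPM with ERKi and 422, 478 and 467 CPM with DMSO. The replication-dependent H2AC20 was also among the 4 that fell, each at least 2-fold, so the fall was not confined to variants. Replication-dependent histone transcripts end mostly without poly(A), so a polyadenylated library counts only their polyadenylated part. Promoters of 15 of the 17 listed histone genes in the promoter table hold a CCAAT box, and those shown are the replication-dependent H2AC6 (chr6:26123985-26124123), at 5.05, and the replication-independent variant H2AZ1 (chr4:99950336-99950472, minus strand), at -1.68, with the box or its reverse (ATTGG) in capitals.
H2AC6: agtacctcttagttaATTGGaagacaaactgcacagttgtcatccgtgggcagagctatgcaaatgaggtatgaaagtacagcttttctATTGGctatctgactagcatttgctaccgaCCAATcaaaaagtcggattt
H2AZ1: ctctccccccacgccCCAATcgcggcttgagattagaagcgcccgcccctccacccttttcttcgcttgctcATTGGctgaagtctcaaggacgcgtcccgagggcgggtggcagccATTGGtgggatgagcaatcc

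Cell death genes outside the BCL2 family were mixed. Of 17 caspase, apoptosome and IAP genes 5 rose and 6 fell (median 0.04), near the shares of all genes tested (34.5% higher and 35.2% lower). CFLAR, the inhibitor of caspase 8, had 212, 197 and 213 CPM with ERKi and 84, 89.1 and 94.1 CPM with DMSO, a rise of 1.22 (SE 0.052, adjusted p = 2.42e-12). APAF1, the apoptosome scaffold, had 167, 167 and 179 CPM with ERKi and 69.6, 108 and 113 CPM with DMSO (0.82, with DMSO replicate 1 the lowest), whereas CYCS, cytochrome c, its activator, had 115, 115 and 114 CPM with ERKi and 289.8, 331 and 329 CPM with DMSO and fell by 1.47 on the log2 scale.

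**Figure D3:**
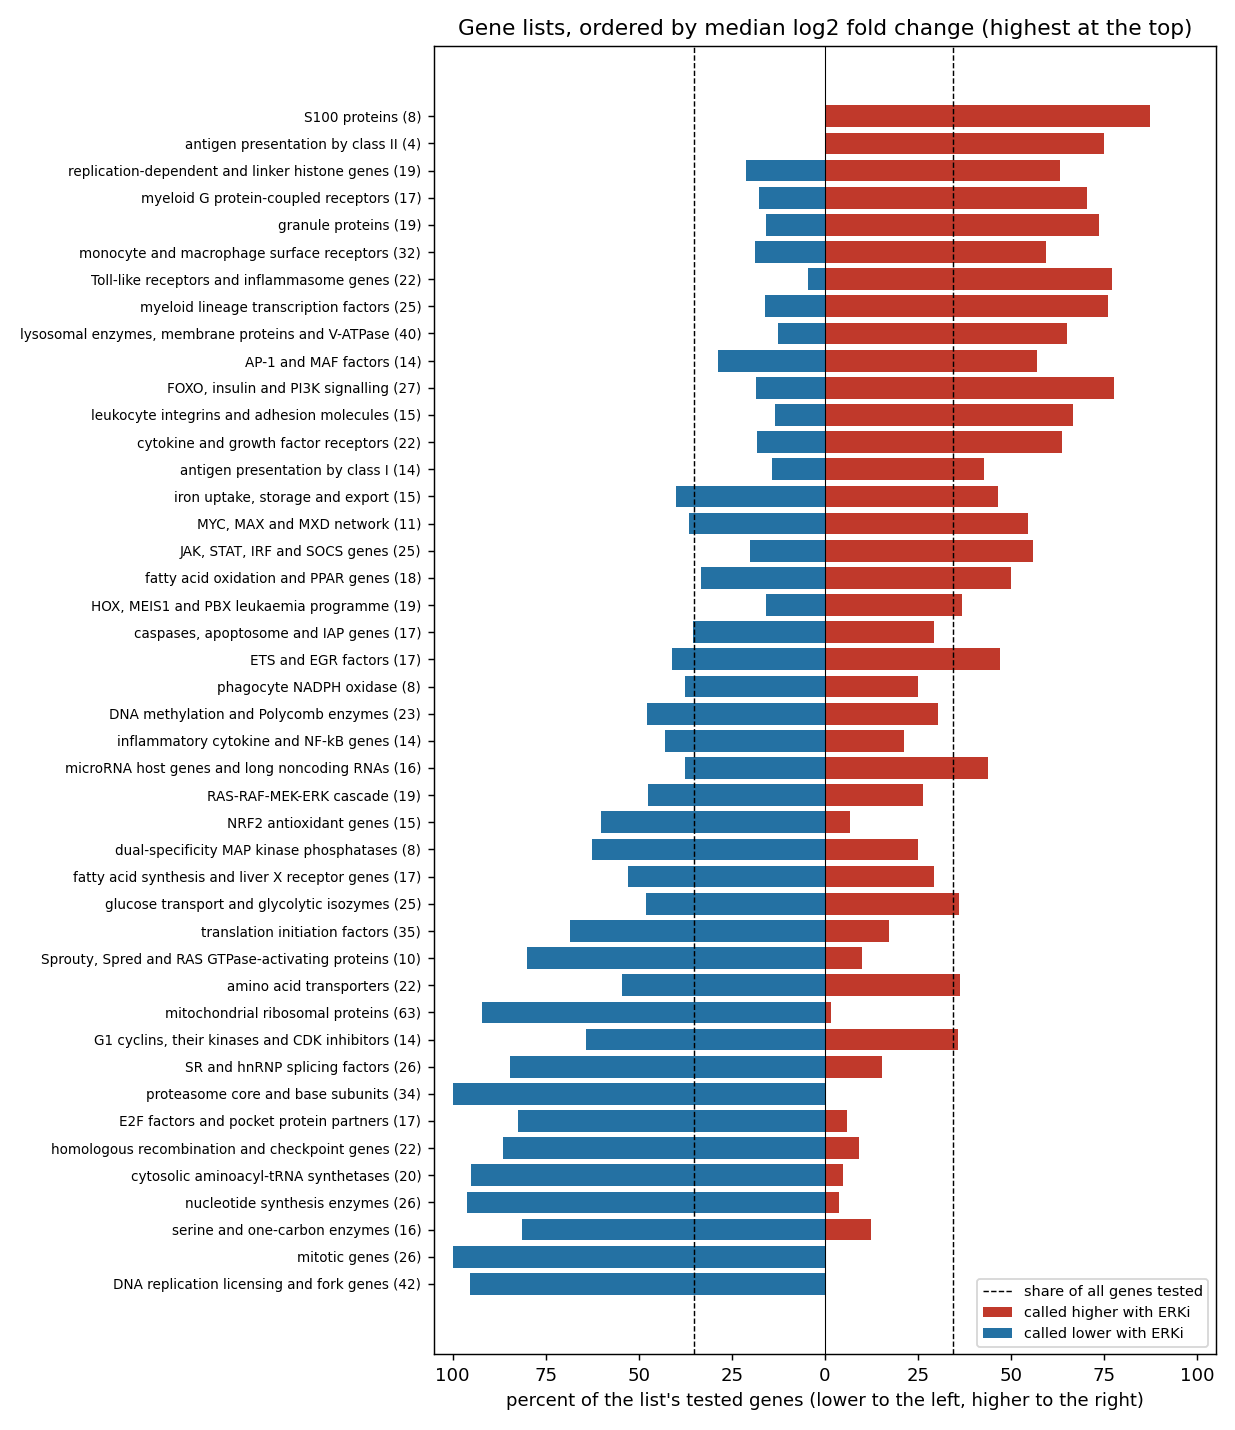
Percent of the tested genes of each of 44 lists called higher with ERKi (red, to the right) and lower (blue, to the left), ordered by median log2 fold change from the highest at the top, with the number tested in brackets. Dashed lines mark the shares of all genes tested, 34.5% higher and 35.2% lower; mitotic and proteasome genes reach 100% lower, and S100 proteins have the highest median.

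Long noncoding RNAs leaned upward at every level. Of 1408 lncRNA genes tested, 651 rose (46.24%) and 139 fell (9.872%), with a median of 0.61, against 33.29% and 40.36% of 12339 protein-coding genes with a median of -0.06. Between 10 and 100 CPM, 60.18% of lncRNA genes were higher and 18.58% lower, against 32.85% and 45.02% of protein-coding genes. At 100 CPM or more, 9 of 11 lncRNA genes were higher. Of 68 snoRNA genes 3 rose and 17 fell, although such short RNAs are poorly captured in polyadenylated libraries. NEAT1, the RNA that builds paraspeckles, had 345, 256 and 354 CPM with ERKi and 142, 164 and 161 CPM with DMSO, HOTAIRM1, of the HOXA cluster, 7.06, 8.82 and 8.94 CPM with ERKi and 2.56, 2.73 and 2.66 CPM with DMSO, and CYTOR 20.4, 23.6 and 23.9 CPM with ERKi and 6.52, 6.69 and 6.45 CPM with DMSO. They rose by 1.03, 1.64 and 1.78. DLEU2, the host of miR-15a and miR-16-1, had 6.63, 5.87 and 8.01 CPM with ERKi and 31.5, 32 and 32.1 CPM with DMSO and fell by 2.22, and MIR17HG, the host of the miR-17 cluster, fell by 1.08. GABARAPL1-AS1, antisense to the autophagy gene GABARAPL1, rose by 4.70, and without a stated strand setting its reads cannot be told from those of its partner.

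**Figure D4:**
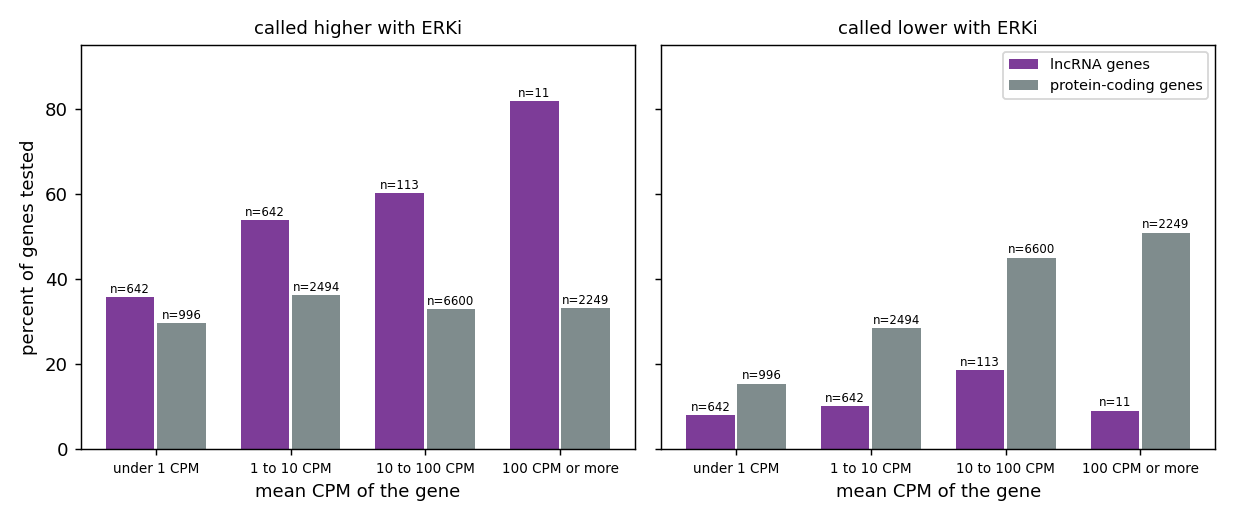
Percent of genes called higher (left panel) and lower (right panel) with ERKi, for lncRNA genes (purple) and protein-coding genes (grey) in 4 ranges of mean CPM, with the number tested above each bar. In each range the share higher is greater for lncRNA genes, from 35.67% against 29.62% under 1 CPM to 81.82% against 33.08% at 100 CPM or more.

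A few genes went from near silence to clear expression, or the reverse. Switched on, with at most 5 counts in each DMSO library and at least 50 in each ERKi library, were 6 genes. SYT6, a synaptotagmin, had 5.78, 5.03 and 6.89 CPM with ERKi and 0.193, 0.188 and 0 CPM with DMSO, ENHO, the precursor of the peptide adropin, 4.59, 3.83 and 3.96 CPM with ERKi and 0.0483, 0.0471 and 0.0948 CPM with DMSO, SNAP91, a clathrin adaptor of nerve endings, 3.46, 4.2 and 4.61 CPM with ERKi and 0, 0.0471 and 0.142 CPM with DMSO, and SLC7A8, an amino acid carrier of the family of SLC7A5, 2.75, 2.4 and 2.7 CPM with ERKi and 0, 0.141 and 0.19 CPM with DMSO. ABCA9 and LOC102724687 complete the set. Switched off by the mirror rule were 5: C3orf52, ANGPT1, the ligand of the TIE2 receptor, with 0.0948, 0.0924 and 0 CPM with ERKi and 2.9, 4.99 and 4.93 CPM with DMSO, ADM2, a peptide hormone, with 0.0948, 0 and 0.14 CPM with ERKi and 4.4, 3.06 and 2.8 CPM with DMSO, GPR3, a receptor coupled to cyclic AMP, with 0.237, 0.0462 and 0.0931 CPM with ERKi and 3.38, 3.67 and 2.8 CPM with DMSO, and NECAB2.

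Among tested protein-coding genes in genome order, 5 runs of at least 4 neighbours were all called in 1 direction at least 2-fold, 4 of them higher. Of all tested protein-coding genes 10.79% were at least 2-fold higher and 11.33% at least 2-fold lower, and whether the number of runs exceeds what these shares give was not tested, so the runs are only a description. The longest was the S100 cluster on chromosome 1 (153357854 to 153545806, GRCh38), where S100A9, S100A12, S100A8, S100A6 and S100A4 rose by 2.21, 5.53, 4.70, 1.49 and 1.66. S100A12 is not among the largest rises given above, which required at least 5 CPM on average and no overlap. On the same chromosome (160541098 to 161021152) CD84, LY9 and CD244, receptors of the SLAM family, and F11R, a junction protein, rose, with CD244 at 86, 86.4 and 81.9 CPM with ERKi and 12.7, 12.7 and 11.9 CPM with DMSO. On chromosome 17 (68974488 to 69327133) the lipid transporter genes ABCA9, ABCA6, ABCA10 and ABCA5 rose by 4.84, 3.03, 3.44 and 1.48, and at 45160174 to 45432870 HEXIM2, FMNL1, MAP3K14 and ARHGAP27 rose by 1.03 to 1.54. ABCA9 had at most 5 counts in each DMSO library, so the size of its rise depends on the prior count of the fit. The run that fell, on chromosome 11 (119355215 to 120230334), held USP2, THY1, NECTIN1 and OAF. THY1 had under 0.7 CPM in every library and was not called without ERKi replicate 2 (adjusted p = 0.064) or DMSO replicate 3 (0.0565).

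Set against the only other ERKi effect of the series, that on top of venetoclax, the effect alone had the same direction for most of the genes called. The comparison of Comb with ABT199 libraries shares no library with ERKi against DMSO, and 66.2% of genes were called in it. Of the genes called with ERKi alone, 70.85% (7494) were called in the same direction on venetoclax, and 524 were called in the opposite direction. The difference between both effects was called for 39.2% of genes. Among genes called with ERKi alone it was called for 4828: below 0 for 1665 risers and above 0 for 467 risers, and above 0 for 2234 fallers and below 0 for 462 fallers. These genes were selected on the effect alone, which favours a smaller effect on venetoclax, so the counts do not show which effect was larger. Mitotic genes had a median of -1.39 with ERKi alone and -0.60 on venetoclax, and the difference was called above 0 for 26 of 26. For replication genes the medians were -1.5 and -1.08, with 29 of 42 differences called above 0 and 2 below. S100 genes had medians of 1.58 and 0.69, with 4 of 8 differences below 0, and granule genes 0.82 and 1.10, with 6 above and 1 below. CDKN2B rose by 3.58 alone and 1.30 on venetoclax (difference -2.27, adjusted p = 3.24e-05), and LYZ by 3.54 and 4.50 (difference 0.96, adjusted p = 2.54e-08). GATA2 fell by 2.27 alone and was at 0.28 on venetoclax (difference 2.55, adjusted p = 3.17e-05), and CX3CR1 rose by 1.56 alone and was at 0.00 on venetoclax (difference -1.56, adjusted p = 8.84e-09).

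**Figure D5:**
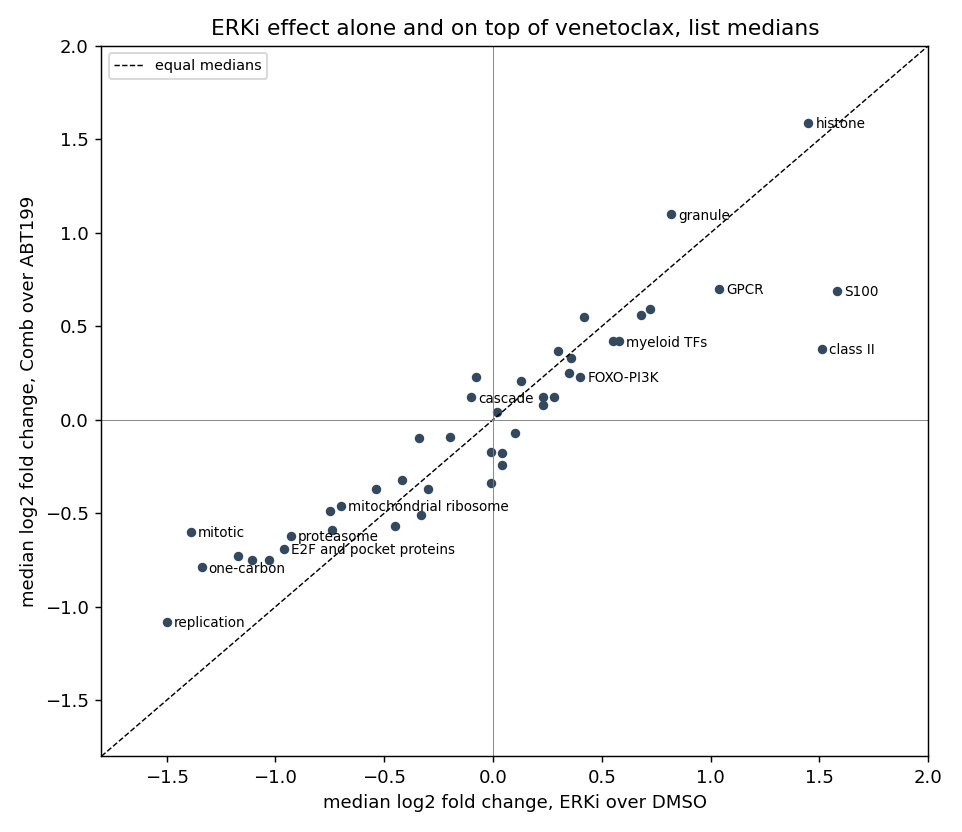
Median log2 fold change of 44 gene lists for ERKi on top of venetoclax (Comb over ABT199, vertical axis) against ERKi alone (ERKi over DMSO, horizontal axis), with a dashed line of equal medians. Mitotic genes (-0.60 on venetoclax and -1.39 alone) and replication genes (-1.08 and -1.5) lie above the line, and S100 genes (0.69 and 1.58) below it.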

How the data were processed

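RNA of 12 OCI-AML3 libraries (4 groups of 3) was sequenced. Per the submitters' processing notes HISAT2, HTSeq, DESeq2 and hg38 were used. Their versions, the annotation and the strand setting: not given in the sources used here. The authors deposited whole-number read counts per gene symbol, not normalized. Groups were taken from the labels. Members, gene lists and promoters were chosen with earlier results of these data known. Genes named are the largest changes, the list anchors and extremes, switched genes and neighbour runs. From the deposited counts edgeR 4.0.16 (R 4.3.3) gave TMM-scaled CPM and quasi-likelihood F tests over all 12 libraries (filterByExpr with a minimum count of 10 and minimum total of 15; 15173 of 54628 symbols; 8 residual degrees of freedom) with Benjamini-Hochberg adjustment, called under 0.05. SE is the log2 fold change over the square root of F, with a prior count of 0.125. The fit was also run on simulated counts with known changes. Those held no departure of a whole library like that of DMSO replicate 1, so the run cannot speak to it. Promoters are RefSeq GRCh38.p14 windows matched by symbol (11022 tested genes), searched on both strands. Alternatives used DESeq2 1.42.0, limma 3.58.1, other scalings and filters, the libraries compared alone, a replicate block and each library left out. Figures used Python 3.11.15 and matplotlib 3.10.9.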

Additional observations from a re-analysis of the deposited data

Results flagged for a closer look

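The effect of ERKi was called in opposite directions without and with venetoclax for 524 genes. Given here are the 5 with the largest difference of both effects (on venetoclax minus alone, called by edgeR's quasi-likelihood test) in each direction, among genes with at least 5 CPM on average. THBS1, thrombospondin 1, was at 1.45 alone and -4.43 on venetoclax, a difference of -5.88. It had 10.8, 6.88 and 11.3 CPM with ERKi and 0.387, 4.8 and 5.36 CPM with DMSO, so that DMSO replicate 1 lay far below the other DMSO libraries, and DESeq2 did not call the effect alone (adjusted p = 0.0864). Fibroblast and stromal markers moved the same way on venetoclax: 4 of the 5 tested were called lower in Comb than in ABT199 libraries (median -4.05), and 3 of the 5 differences were called below 0 (median -3.31). Their part in the THBS1 result was not tested. GJA1, a gap junction protein, was at 1.60 and -1.24 (-2.85), GHR, the growth hormone receptor, at 1.64 and -0.95 (-2.59), CACNB4, a calcium channel subunit, at 1.94 and -0.51 (-2.45), and PLPP3, a lipid phosphatase, at 0.49 and -1.77 (-2.26). The other direction held AATF (-2.07 and 1.87, difference 3.94), THBS4 (-0.62 and 1.38, difference 2.0), IGSF10 (-0.92 and 0.86, difference 1.77), CHTF18 (-1.21 and 0.33, difference 1.55) and RAB44 (-0.53 and 0.84, difference 1.37). AATF had 2.94, 2.31 and 2.1 CPM with ERKi and 4.4, 2.87 and 23.6 CPM with DMSO, and its effect alone was not called without DMSO replicate 3 (-0.58, adjusted p = 0.227) or by limma-voom (-1.46, adjusted p = 0.109). What lies behind these differences was not tested.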

How the results depend on the processing

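The 4 counts of genes called kept within 1.5 times of the values reported under all 15 alternatives. Genes higher and lower numbered 6308 and 4427 with upper-quartile factors, which shifted the median of all genes by 0.14 on the log2 scale, 5925 and 4745 with library totals (0.09), and 5116 and 5173 with DESeq2. Leaving out 1 library gave 4860 to 5321 higher and 5111 to 5415 lower. ITGB1 turned to 0.013 and NLRP3 to 0.105 with upper-quartile factors, and XIAP to -0.107 without DMSO replicate 1 (its leave-one-out range ran to 0.113); the cause was not tested. Of 359 named genes 317 kept direction and side of the threshold throughout. Of 1530 recomputed list counts 52 moved by over 1.5 times, among them lower lysosomal genes (2) and higher inflammatory genes (5) with upper-quartile factors. Same-numbered ERKi and DMSO libraries deviated with correlations of -0.0111, 0.0239 and 0.0503, and not every library correlated best with its own number, so the numbers were not taken to pair samples; a replicate block gave 5194 higher and 5300 lower. Depth limits genes under 1 CPM, of which 41.87% were called.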
